A study of Mus musculus with 6 samples.

Results

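Ribosome assembly factors are the proteins that turn newly made ribosomal RNA into ribosomal subunits, and 57 genes encoding them were examined among the 21851 genes of the deposited tables. The 57 were given by symbol, were all present, and fall by known function into 22 factors of the small subunit, 24 of the large subunit, 3 core proteins of box C/D small nucleolar ribonucleoproteins (snoRNPs), 3 of box H/ACA snoRNPs and 5 general nucleolar or RNA polymerase I proteins. They were chosen by function and by their FPKM differences between the diets in these same 6 libraries, which were known when the set was proposed. Those differences between the diets are therefore given as a description, and no test is read from them. The RNA came from bone marrow of wild-type (WT) mice, from cells that the labels call LT-HSC (long-term haematopoietic stem cells), gated as Lin-c-Kit+Sca1+CD34-CD135-. Feeding lasted 3 months. It was a control diet, abbreviated CD, in 3 libraries, and in the other 3 a diet high in cholesterol, abbreviated HCD. All mice shared the WT genotype and the diet time, and the labels give no strain, age or sex and do not say whether a library came from 1 mouse or from pooled mice. Any p-value therefore measures the spread between these libraries, which may be technical.

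Ribosomes are built in the nucleolus. RNA polymerase I makes a long precursor, and snoRNPs modify its nucleotides. The small subunit processome folds and cuts the precursor into the 18S RNA of the small (40S) subunit. A separate set of helicases, GTPases and scaffold proteins matures the 28S and 5.8S RNA of the large (60S) subunit. Stem cells of the marrow are known for a low rate of protein synthesis, and the transcription factor MYC is a known activator of ribosome assembly genes.

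The deposited values are FPKM, which scale each gene's reads by transcript length and library size. The step that 1 read makes in genes of low value puts the libraries at 18820000 to 19980000 reads or fragments each. A member held an estimated 700 to 36220 of them per library, with a median of 1500. These estimates use the longest coding transcript, 8202 bases for Ncl at the top, and are too high where the usual transcript is shorter. The gate excludes surface CD34 and CD135, yet Cd34 stood at 471 ± 15.4 FPKM (SD, n = 3) under CD and 458 ± 17 under HCD, and Flt3 (CD135) at 114 ± 1.19 and 104 ± 4.12. The stem cell marker Slamf1 stood at only 1.79 ± 0.47 and 3.41 ± 0.27 FPKM. The libraries are called here by their label. HCD replicate 2 stood apart from the other HCD libraries, with long transcripts lower (Spearman rho of -0.27 between transcript length and its difference from HCD replicates 1 and 3). Several results that move with it are given with and without it.

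The bases before the start sites were examined in RefSeq promoter sequences of build GRCm38.p6, which run from 250 bases before each gene's start to 50 after it and were found for 49 of the 57. The sequence CCGGAAG, the core that ETS-family factors recognise, or its reverse complement lay in 20 of 49 (40.8%), against 1831 of the 8330 tested genes with a promoter and 9.93% of all 27025 promoters. Among the other ribosome assembly genes described further on it lay in 29 of 67 (43.3%). The E-box CACGTG, the letters MYC and its relatives bind, lay in 11 of 49 (22.4%), against 12.2% and 8.09%. Among the other ribosome assembly genes it lay in 11 of 67 (16.4%). Among the members it was present in 7 of 20 small subunit factors and 3 of 20 large subunit factors. By the diet comparison described below, it lay in 6 of 29 members lower past the threshold (20.7%) and in 5 of 20 that were not (25.0%), and the ETS core in 14 of 29 and 6 of 20. In 7 of the 11 genes it lay at or after the start site, among them Mdn1, Tsr1, Utp20, Wdr43 and Pes1, and in 4 before it. The NRF1 motif was in 1 of 49 promoters (2.04%, against 2.62% of tested genes), and YY1's AAGATGGC in 0 of 49, against 5.79% of tested genes. Each motif was searched on both strands, and a match only says that the letters are there. Shown as examples are stretches before the start of 7 members that carry either motif, all but Utp18 lower past the threshold, 5′ to 3′ on the gene's strand, with the motif in capitals. Not shown are stretches of other members not past the threshold, such as Rrn3 (E-box) and Nip7, Ddx10, Ltv1 and Wdr74 (ETS core). The stretch of Nop2 carries both motifs, with the ETS core left in lower case.
Nop2, chr6:125131781-125131870, plus strand, E-box: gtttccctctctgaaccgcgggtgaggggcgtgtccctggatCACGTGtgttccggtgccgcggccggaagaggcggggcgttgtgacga
Nol11, chr11:107189382-107189471, minus strand, E-box: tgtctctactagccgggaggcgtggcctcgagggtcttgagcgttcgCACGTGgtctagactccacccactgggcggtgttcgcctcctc
Utp18, chr11:93885767-93885856, minus strand, E-box: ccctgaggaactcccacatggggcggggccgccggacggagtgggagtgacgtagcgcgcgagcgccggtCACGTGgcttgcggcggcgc
Nol10, chr12:17348386-17348445, plus strand, ETS core on the other strand: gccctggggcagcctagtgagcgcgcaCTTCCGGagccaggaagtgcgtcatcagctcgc
Gar1, chr3:129831407-129831466, minus strand, ETS core on the other strand: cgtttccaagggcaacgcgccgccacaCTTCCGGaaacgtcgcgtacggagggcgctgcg
Urb2, chr8:124021437-124021496, plus strand, ETS core: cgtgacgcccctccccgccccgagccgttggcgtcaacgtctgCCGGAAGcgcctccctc
Nolc1, chr19:46075787-46075846, plus strand, ETS core: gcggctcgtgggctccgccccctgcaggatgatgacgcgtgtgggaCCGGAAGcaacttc

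The comparison of HCD with CD asks how the transcripts of these factors differ after the cholesterol-rich diet. Of the 57, 53 had a lower fitted value under HCD, as did 6186 of all 10676 tested genes. In the limma fit over all tested genes 33 of the 57 were lower past an adjusted p of 0.05, and 0 were higher past it. Over all tested genes 7.66% were lower past that threshold and 6.28% higher, that is 818 and 670 genes, or 585 and 784 with trimmed-mean (TMM) scaling. With that scaling 26 of the 57 were lower past the threshold. Without a filter on low values 27 were, against 3.92% of all genes in that fit. The 3 HCD libraries all lay below the 3 CD libraries in 43 of the 57, against 22.7% of tested genes, and all above in 1, Ddx52, against 15.0%. The median log2 change of the members, on log2(FPKM + 1), was -0.23, a fall of 14.9%, and that of all tested genes -0.03. Members past the threshold were 12.3% to 45.9% lower, with Mdn1 at the far end and the next, Nol8, at 27.8%. In bulk RNA, fewer cells of a type that makes much of these transcripts and less RNA per cell cannot be told apart. All 57 passed the filter on low values of 1 FPKM in 3 libraries, and the lowest CD mean was 7.65 FPKM, for Urb1. In CD, 53 of the 57 stood above the median tested gene.

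The count of 33 depended on which library was left out. Leaving out CD replicate 1, 2 or 3 gave 8, 12 or 9 members, and leaving out HCD replicate 1, 2 or 3 gave 19, 38 or 27, while over all genes the lower calls ranged from 181 to 1501. The median change of the members lay between -0.24 and -0.23 in those fits. With the replicate number as a block the same 33 passed, together with Wdr75, Nip7 and Mrto4. Over all tested genes 9.67% were lower past the threshold in that fit, against 7.66% in the main fit.

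**Figure D1:**
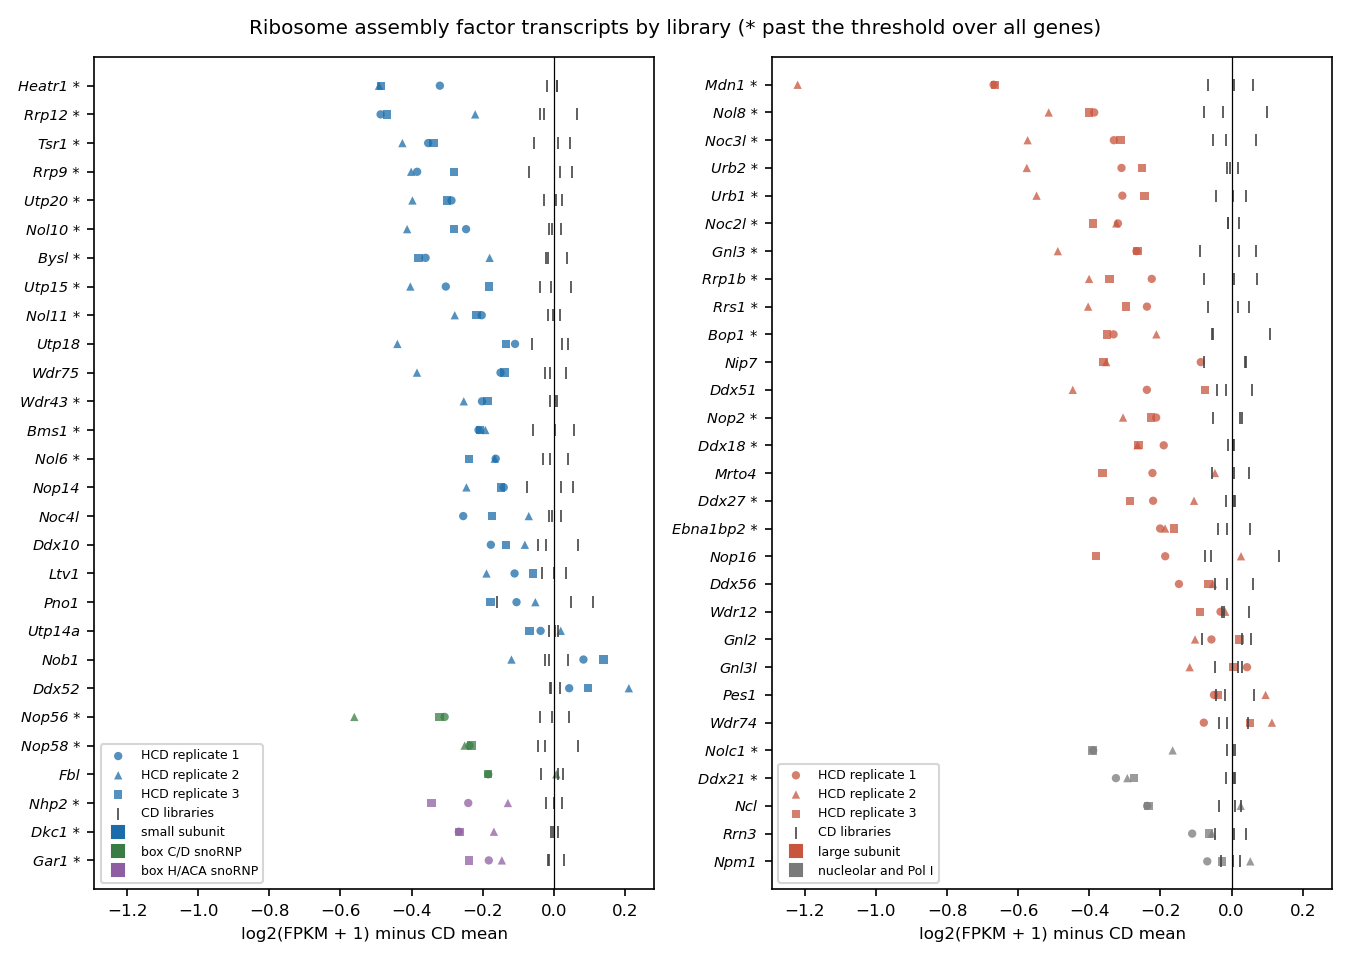
Each row is a gene, and the x axis gives log2(FPKM + 1) of each library minus the mean of the 3 CD libraries; circles, triangles and squares are HCD replicates 1, 2 and 3, vertical ticks the CD libraries, colours the functional groups, and a star marks a gene past the threshold. Of the 57 genes, 43 have all HCD points to the left of all CD ticks, and Mdn1 lies farthest left.

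Among the small subunit factors 12 of 22 were lower past the threshold, against 7.66% of all tested genes, and 0 higher, against 6.28%. Their median log2 change was -0.22, with a range from -0.43 to 0.12. Their groups did not overlap in 19 genes, lower under HCD in 18 and higher in Ddx52, against 22.7% and 15.0% of all tested genes. The clearest small subunit factor was Tsr1, which encodes a GTPase-like protein carried by late small subunit precursors. It stood at 32.5, 30.3 and 31.8 FPKM in CD replicates 1 to 3 and at 24.5, 23.2 and 24.7 in HCD replicates 1 to 3. All HCD values lay below all CD values, and the mean was 23.5% lower (log2 change -0.37 ± 0.05 SE).

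Heatr1, the largest protein of the UTP-A complex that joins the nascent precursor first, stood at 22.9, 22.9 and 22.4 FPKM under CD and 18, 15.9 and 15.9 under HCD. The groups were far apart against their SDs of 0.27 and 1.21, and the mean was 26.9% lower (chromosome 13, 12395027 to 12440289, GRCm38). The other listed members of UTP-A are Utp15, Wdr43, Wdr75 and Nol11. All 5 had HCD values below every CD value, against 22.7% of all tested genes. Of the 5, 4 were past the threshold, all but Wdr75, against 7.66%. Wdr43, the most abundant small subunit factor here, went from 56.8, 56.1 and 56.6 to 49.0, 47.2 and 49.5 FPKM, a difference of 14.0%. Averaged over UTP-A, HCD replicates 1 and 3 each lay 0.24 below CD on the log2 scale (-0.24) and HCD replicate 2 lay at -0.36.

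Rrp9, a WD-repeat protein of the U3 snoRNP that guides the cuts around 18S RNA, stood at 36.3, 34.1 and 37.2 FPKM under CD and 27.2, 26.9 and 29.3 under HCD, 22.5% lower. Utp20, a very large scaffold of the processome, went from 13.1, 13.3 and 12.8 to 10.5, 9.67 and 10.4 FPKM, 21.9% lower. Rrp12, which acts in the export of small subunit precursors, went from 16.7, 17.97 and 16.8 to 11.9, 14.6 and 12.1 FPKM. HCD replicate 2 was the highest of its group for Rrp12 and the lowest for Utp20, and in neither gene did the diets overlap. The remaining small subunit factors past the threshold were Nol10, Nol11, Utp15, Bysl, Bms1 and Nol6, 12.7% to 20.9% lower.

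The factors of the last steps differed among themselves. Nob1 encodes the nuclease that makes the final cut of 18S RNA, and it stood at 44.9, 44.5 and 46.6 FPKM under CD and 48.1, 41.6 and 50.01 under HCD. The HCD values spread around the CD values, and their mean differed by 2.75%. Its partner gene Pno1 also overlapped, at 31.9 ± 3.14 against 29.3 ± 1.33 FPKM (SD, n = 3). The ratio of Tsr1 to Nob1 was 0.725, 0.680 and 0.682 in the CD libraries and 0.509, 0.557 and 0.494 in the HCD libraries. These 2 genes of late small subunit maturation therefore stood in a lower ratio in every HCD library, a pair picked after the values were seen. Ltv1, another late factor, stood at 29.6 ± 0.71 and 27.2 ± 1.27 FPKM and was not past the threshold. Utp14a, which activates a helicase of the processome, had the same level under both diets within the spread, at 18.7 ± 0.17 and 18.3 ± 0.60 FPKM. The helicase gene Ddx52 alone among the 57 was above CD in every HCD library (22.6, 25.5 and 23.5 against 21.7, 22.2 and 21.8 FPKM), and it was not past the threshold.

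Among the large subunit factors 14 of 24 were lower past the threshold, against 7.66% of all tested genes, and 0 higher, against 6.28%. Their median log2 change was -0.25, with a range from -0.85 to 0.03. The groups did not overlap in 17, each lower under HCD, against 22.7% of all tested genes. Noc2l, which encodes a nucleolar partner of NOC3L, had the highest level of the large subunit factors. It stood at 124, 122 and 122 FPKM under CD and 98.0, 97.7 and 93.3 under HCD, 21.4% lower (log2 change -0.34 ± 0.04 SE, chromosome 4, 156236010 to 156247616). Its partner gene Noc3l went from 15.0 ± 0.70 to 11.1 ± 1.19 FPKM. The ratio of Noc3l to Noc2l was 0.122 ± 0.004 under CD and 0.116 ± 0.014 under HCD, and its groups overlapped.

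Mdn1 encodes midasin, a giant ATPase that pulls assembly factors off large subunit precursors, and its transcript of 17970 bases is the longest of the 57 (chromosome 4, 32657119 to 32775217). It stood at 20.3, 19.2 and 21.1 FPKM under CD and 12.3, 8.09 and 12.4 under HCD. Every HCD value was below every CD value, and HCD replicate 2 was the lowest. The mean was 45.9% lower, or 38.9% without that replicate. After the trend of each library against transcript length was removed, the log2 change was -0.64, against -0.85 as deposited.

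Nol8, a nucleolar protein gene, went from 15.3, 13.4 and 14.0 to 10.6, 9.66 and 10.5 FPKM, 27.8% lower. Rrs1, which brings the 5S RNA particle into the precursor, went from 42.9, 46.4 and 45.4 to 37.9, 33.7 and 36.4 FPKM. Nop2, a methyltransferase of 28S RNA, went from 46.8, 47.0 and 44.4 to 39.6, 37.1 and 39.2 FPKM. The diets did not overlap in these 3 genes, nor in the helicase gene Ddx18, which went from 47.9 ± 0.32 to 40.4 ± 1.21. Gnl3 encodes nucleostemin, a GTP-binding protein abundant in stem and dividing cells, and stood at 78.2, 70.0 and 75.5 FPKM under CD and 61.7, 52.8 and 61.9 under HCD. Its relatives did not follow it. Gnl3l stood at 15.4 ± 0.47 and 15.2 ± 0.93 FPKM and Gnl2 at 43.9 ± 2.28 and 42.5 ± 1.92, and the groups of each overlapped. Urb1 and Urb2, which bind each other early on the large subunit precursor, were 25.1% and 24.5% lower, and 19.7% and 19.1% lower without HCD replicate 2. The ratio of Urb1 to Urb2 was 0.598 ± 0.019 under CD and 0.594 ± 0.002 under HCD.

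PES1, BOP1 and WDR12 form 1 complex that is needed for large subunit maturation, and of their genes only Bop1 was past the threshold. Pes1 stood at 53.8, 54.8 and 57.9 FPKM under CD and 53.6, 59.3 and 54.0 under HCD, with the diets interleaved. Wdr12 overlapped too, at 26.3 ± 0.82 and 25.5 ± 0.68 FPKM. Bop1 went from 47.2, 42.1 and 42 to 34.5, 37.6 and 34.1 FPKM. The ratio of Bop1 to Pes1 was 0.877, 0.769 and 0.725 in the CD libraries and 0.644, 0.634 and 0.631 in the HCD libraries, 19.5% lower in the mean. It was below every CD value in each HCD library, though the CD values spread more. The ratio rests on Bop1, which was named after its values were seen. Bop1 overlaps the genes Mroh1 and Scx on the opposite strand. The libraries are stranded per the labels, but whether the counting used the strand is not given in the sources used here. Of the 57 members, 20 overlap a gene on the opposite strand, and 1, Urb2, overlaps the gene Gm20388 on the same strand.

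**Figure D2:**
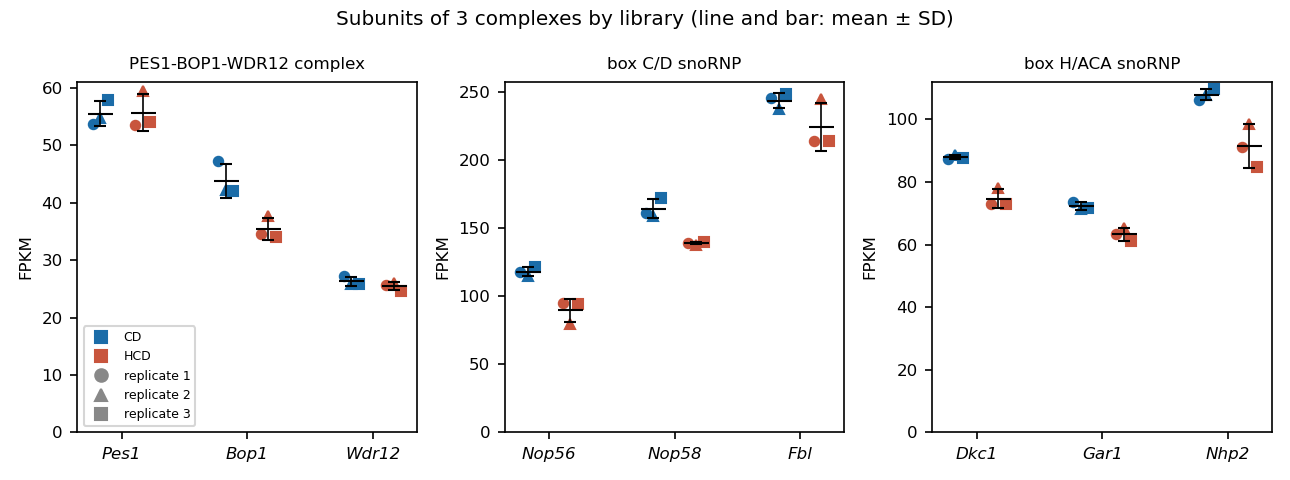
FPKM (y axis, from 0) of the subunit genes of 3 complexes in each library, blue for CD and red for HCD, with symbols for replicates 1 to 3 and black lines for the mean ± SD (n = 3). Pes1 and Wdr12 overlap between the diets at 55.5 against 55.6 and 26.3 against 25.5 FPKM, whereas Bop1, Nop56, Nop58 and all 3 box H/ACA genes do not.

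Of the box C/D proteins, which carry 2′-O-methylation of ribosomal RNA, the scaffold genes Nop56 and Nop58 were past the threshold and the methyltransferase gene Fbl was not. Nop56 stood at 118, 115 and 121 FPKM under CD and 95.1, 79.6 and 94.2 under HCD, 24% lower. Without HCD replicate 2 it was 19.8% lower. Nop58 stood at 161, 159 and 172 FPKM and then 139, 138 and 140, 15.5% lower, and left the threshold when the length trend was removed. Fbl stood at 245, 237 and 248 FPKM under CD and 214, 245 and 214 under HCD. HCD replicate 2 alone put Fbl within the CD range, and without that library Fbl was 12.1% lower and past the threshold. The ratio of Nop56 to Fbl was 0.479, 0.483 and 0.489 under CD and 0.444, 0.325 and 0.440 under HCD.

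The 3 box H/ACA genes, which encode the pseudouridine-forming particle, were all past the threshold. Dkc1, the pseudouridine synthase gene also needed for telomerase RNA, stood at 87.4, 88.5 and 87.7 FPKM under CD and 72.9, 78.1 and 73.0 under HCD, 15.1% lower. Gar1 went from 73.7, 71.5 and 71.6 to 63.6, 65.2 and 61.1 FPKM. Nhp2 went from 106, 108 and 110 to 91.2, 98.6 and 84.8 FPKM. No HCD value reached the CD range in any of the 3, and HCD replicate 2 was the closest to it each time. With TMM scaling Gar1 and Nhp2 were no longer past the threshold. Leaving out any CD library or HCD replicate 1 also ended the calls of all 3, and leaving out HCD replicate 3 those of Gar1 and Nhp2.

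Among the general nucleolar genes Ddx21, a helicase that links RNA polymerase I transcription to rRNA processing, went from 97.0, 98.4 and 98.6 to 78.0, 79.8 and 80.8 FPKM, 18.8% lower and with narrow groups. Nolc1, a snoRNP chaperone gene, went from 71.3, 70.9 and 70.1 to 53.8, 63.0 and 53.7 FPKM. Ncl (nucleolin) stood at 234, 245 and 242 FPKM under CD and 204, 245 and 204 under HCD, so that only HCD replicate 2 lay within the CD range, as for Fbl. Without that library Ncl was 15.1% lower and past the threshold. With all libraries and the length trend removed, its log2 change was -0.05. Npm1 (nucleophosmin), the most abundant of the 57, stood at 878, 898 and 911 FPKM under CD and 854, 929 and 879 under HCD, with full overlap. Quantile normalization moved Fbl, Ncl and Npm1 past the threshold, each lower. Rrn3, which brings RNA polymerase I to its promoter, was 19.9 ± 0.64 and 18.9 ± 0.41 FPKM and not past the threshold.

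The small and large subunit factors were then set against each other. Averaged over the small subunit factors, HCD replicates 1, 2 and 3 differed from the CD mean by -0.20, -0.24 and -0.20 on the log2 scale. Averaged over the large subunit factors they differed by -0.22, -0.29 and -0.24. The large subunit factors were the lower set in each HCD library, by 0.02, 0.06 and 0.04, while in the CD libraries the same gap was -0.01, 0.01 and 0.00. In HCD replicate 1 the gap was near those of the CD libraries (SD 0.01). The large subunit means include Mdn1, at a log2 change of -0.85, and its share in the gap was not computed. Medians over the genes, which 1 gene moves less, were -0.20, -0.23 and -0.18 for the small subunit factors in HCD replicates 1 to 3. For the large subunit factors they were -0.22, -0.28 and -0.26. The medians of the fitted log2 change differed by 0.03, and by 0.01 to 0.06 over the fits that left out a library. The summed FPKM of the 22 small subunit factors was 570 ± 1.23 (SD, n = 3) under CD and 496 ± 8.97 under HCD, 12.9% lower. That of the 24 large subunit factors was 876 ± 6.03 and 746 ± 7.40, 14.9% lower. The ratio of the sums was 0.650 ± 0.004 under CD and 0.665 ± 0.015 under HCD, and HCD replicate 2 at 0.651 lay inside the CD range of 0.646 to 0.653. Counts past the threshold were alike in share, at 54.5% and 58.3%. The members were chosen for this contrast, so none of these gaps was tested.

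**Figure D3:**
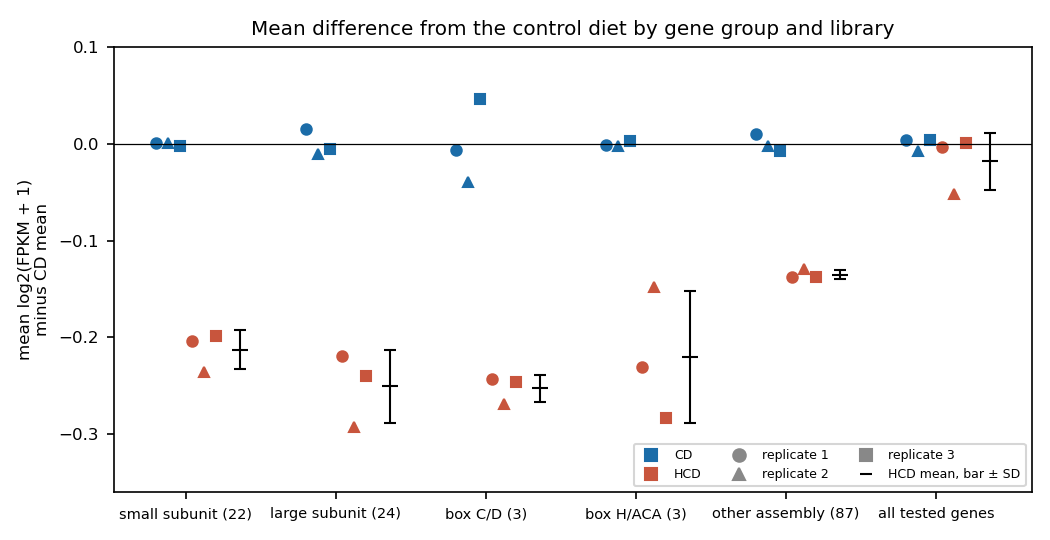
The y axis gives the mean of log2(FPKM + 1) over each gene group in each library, minus the mean of the CD libraries; blue is CD, red is HCD, symbols are replicates 1 to 3 and black bars the HCD mean ± SD (n = 3). Small and large subunit factors lie between -0.20 and -0.29 in the HCD libraries, other assembly genes near -0.13, and all tested genes between -0.05 and 0.00.

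A pair of members joins the 2 sets. Noc4l is a small subunit factor on the minus strand, and Ddx51 a large subunit helicase on the plus strand. In GENCODE they lie 33 bases apart with their starts facing each other (chr5:110653418-110653450). The RefSeq start of Noc4l lies inside its GENCODE gene, so the RefSeq starts are farther apart. The bases between the GENCODE start sites, on the plus strand, are shown because both genes are read outward from them.
Noc4l and Ddx51: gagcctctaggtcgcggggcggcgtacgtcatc
Noc4l stood at 30.8, 29.98 and 30.2 FPKM under CD and 25.2, 28.8 and 26.7 under HCD. Ddx51 stood at 10.7, 9.89 and 10.1 and then 8.50, 7.22 and 9.64 FPKM. Both genes were below every CD value in every HCD library, and neither was past the threshold. HCD replicate 2 was the highest of its group for Noc4l and the lowest for Ddx51, so their ratio overlapped between the diets.

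Transcript length moved with the size of the change. Over the 57 genes the Spearman rho between the longest coding transcript and the log2 change was -0.37, and -0.25 without HCD replicate 2 (n = 57 genes in the same libraries). Over all tested genes it was -0.26 and -0.16. The 17 members over 4 kb had a median log2 change of -0.30 with 13 past the threshold, the 27 between 2 and 4 kb -0.23 with 15, and the 13 under 2 kb -0.18 with 5. Without HCD replicate 2 those medians were -0.28, -0.21 and -0.21. Counts past the threshold by length band were not made over all tested genes. With the length trend removed from every library 34 members were lower past the threshold, 31 of them among the 33, and the median was again -0.23. Over all tested genes 7.62% were lower past the threshold in that fit. The longest annotated transcript overstates the usual one in some genes, such as Nop58 with 9507 bases and Wdr12 with 10012.

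**Figure D4:**
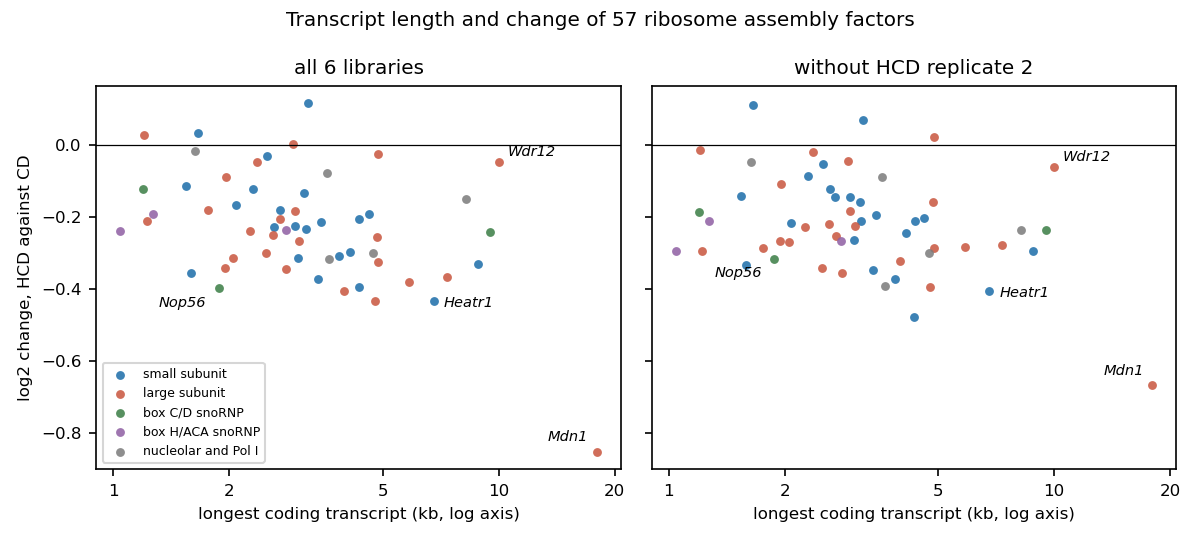
Each point is 1 of the 57 genes, with the length of its longest coding transcript on the x axis (kb, log axis) and its log2 change between HCD and CD on the y axis, from all libraries on the left and without HCD replicate 2 on the right; colours mark the functional groups. Mdn1 is the longest and lowest at -0.85, and the rho over the 57 genes is -0.37 on the left and -0.25 on the right.

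Outside the 57, a further 87 genes of the same pathway, listed by function, were read from the same fit. Of these, 15 fell, 1 rose and 71 did not pass (limma adjusted p under 0.05), against 7.66% lower and 6.28% higher over all tested genes, with a median log2 change of -0.13. This list too was drawn up with earlier results of these data known. By step, 8 of 33 other small subunit factors fell (24.2%) and 0 rose. Of 38 other large subunit factors 3 fell and 1 rose, and the 7.89% that fell is near the share over all tested genes. Of 9 snoRNP genes 2 fell, and of 6 genes of RNA polymerase I initiation 1 fell. The list also includes Myc, which fell. The count that fell was 2, 3 and 2 without CD replicates 1, 2 and 3, 7 and 10 without HCD replicates 1 and 3, and 32 without HCD replicate 2.

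Myc, which encodes the activator named above, fell from 145 ± 1.23 to 105 ± 7.27 FPKM (SD, n = 3; log2 change -0.46 ± 0.06 SE, limma adjusted p = 0.00197), and passed in every alternative fit (adjusted p = 4.00e-05 to 0.0172). Nop10, the smallest box H/ACA protein gene, fell from 148, 146 and 147 to 118, 124 and 105 FPKM (limma adjusted p = 0.0107). Together with Dkc1, Gar1 and Nhp2, each of the 4 box H/ACA core genes was lower past the threshold with all 6 libraries, and none of the 4 was without CD replicate 1. The large subunit factor genes Rbm28 and Cebpz fell from 21.5 ± 0.86 to 17 ± 0.50 FPKM (limma adjusted p = 0.00908) and from 43.9 ± 0.89 to 37.3 ± 0.50 (limma adjusted p = 0.0123). Ubtf, whose product holds ribosomal DNA open for RNA polymerase I, fell from 51.4 ± 0.17 to 43.8 ± 1.39 FPKM (limma adjusted p = 0.0132), and the processome gene Pwp2 from 21.6 ± 0.51 to 17.4 ± 1.001 (limma adjusted p = 0.0132). The 1 riser was Gltscr2, from 235 ± 11.2 to 291 ± 31.5 FPKM (limma adjusted p = 0.035), named after its value was seen, and 0 genes of the list rose when any CD library or HCD replicate 1 was left out. Leaving out CD replicate 1 ended the calls of the 5 fallers named here other than Myc (limma adjusted p up to 0.0531 for Rbm28, 0.0558 for Nop10, 0.0640 for Cebpz, 0.0673 for Ubtf and 0.0636 for Pwp2 over the fits that left out a library). CD replicate 2 ended those of Cebpz, Ubtf and Pwp2, CD replicate 3 those of Nop10, Cebpz, Ubtf and Pwp2, and HCD replicate 1 that of Ubtf.

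Other gene lists moved beside the assembly factors, and their part in the result was not tested. Over all tested genes 7.66% fell and 6.28% rose past the threshold, that is 818 and 670 genes. Those 2 counts ranged from 181 to 1501 and from 258 to 1206 over the fits that left out a library. Of 14 DNA replication genes 8 fell and 0 rose by limma, with summed levels of 1414 to 1422 FPKM under CD and 1246 to 1269 under HCD. Of 10 mitosis genes 3 fell and 0 rose (443 to 448 and 407 to 424 FPKM). All 7 granulocyte and monocyte progenitor genes rose, from sums of 879 to 908 to sums of 1654 to 1820 FPKM, and none was at 0. All 6 tested late neutrophil genes of 8 listed rose (12.2 to 12.4 and 40.1 to 48.6 FPKM), as did 4 of 4 tested megakaryocyte genes of 6 listed (49.95 to 54.1 and 82.0 to 96.8) and 4 of 5 basophil and mast cell genes (33.1 to 38.0 and 57.4 to 67.0). Other lists were mixed or had few calls. Of 6 tested monocyte and macrophage genes of 8 listed, 3 rose and 2 fell. Of 9 sort and stem cell markers Slamf1 rose and Hlf fell. Of 4 tested erythroid genes of 9 listed, 1 fell and 0 rose. The 1 tested endothelium and stroma gene of 6 listed, Pecam1, rose. The B cell genes had 0 calls among 3 tested of 7 listed. Of the 6 T and NK cell genes found, only 1 was tested, the cytotoxic granule gene Nkg7, and it rose. The list summed to 103 to 108 FPKM under CD and 127 to 149 under HCD, and Cd3e, the defining T cell gene, was listed at 0 in all 6 libraries.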

How the data were processed

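Libraries were stranded and made from mRNA of sorted cells, per the labels' protocols. fastp, HISAT2, StringTie and the builds GRCm38 and mm10 are named in the submitters' processing notes; which versions, annotation or filters were used is not given in the sources used here. No header names the unit of the deposited numbers, which was read as FPKM from their range. Each library lists 21878 rows, of which 27 held a date in place of a symbol and were left out. The fit was limma 3.58.1 (R 4.3.3) on log2(FPKM + 1), using eBayes with trend and robust set, two-sided, with Benjamini-Hochberg adjustment over the 10676 genes reaching 1 FPKM in 3 or more libraries and a threshold of 0.05. It was also run on simulated counts that held no library effect, pairing or length trend. That run therefore does not cover those features. Members, roles and lists were chosen with earlier results of these data known. Genes named were, per subunit, the 6 smallest p, 2 largest p and 2 highest levels, all members of the other groups, and 6 genes of the further list; others were named after their values were seen. Positions and lengths (97.0% of tested genes) are from GENCODE vM21 on GRCm38, promoters from RefSeq. Same-numbered CD and HCD libraries deviated together from their group means across genes (r = 0.103, 0.292 and 0.166), each above the bound of 0.1 and the first only just; differently numbered libraries ranged from -0.25 to 0.098, and the labels do not state a pairing. The main fit has no block, and the paired fit is an alternative. Alternatives changed the scaling (unweighted TMM factors, or quantiles), the filter (5 FPKM, or none) or the pseudocount (0.1), removed the length trend, added a replicate block, or left out each library in turn.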

Additional observations from a re-analysis of the deposited data

How the results depend on the processing

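The direction of the median change held for small and large subunit factors in every alternative run. With TMM factors the small subunit median was -0.19, which is nearer 0 than the reported value by more than the spread between HCD libraries, and without a filter the 1 riser among the other assembly genes was lost (0 higher). Leaving out each library in turn gave 181 to 1501 lower and 258 to 1206 higher calls over all genes, 8 to 38 lower and 0 higher among the 57, 3 to 13 among small and 4 to 16 among large subunit factors, and 2 to 32 lower and 0 to 1 higher among the other assembly genes. The medians then ranged from -0.23 to -0.21 (small) and -0.27 to -0.24 (large), and their difference from 0.01 to 0.06. These fits have 1 library fewer. With the replicate block 36 of the 57 were lower past the threshold, 13 and 16 of them small and large subunit factors. Of the other assembly genes 20 fell, and of all tested genes 9.67% were lower past the threshold. The paired fit changed no call of a gene named by rule. Of the genes named by rule, Tsr1, Heatr1, Rrp9, Noc2l, Mdn1, Nol8, Ddx21 and Myc kept their calls whichever library was left out. All were chosen with these data known, so the kept calls describe the fits and are no test of these genes. Among the 57 the smallest difference past the threshold was 12.3%, while differences up to 17.6% (Nip7) did not pass.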
